A study of Caenorhabditis elegans with 12 samples.

Results

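Dissected adult hermaphrodite germlines and embryos of wild-type *C. elegans* were compared on 6 of the 12 Affymetrix *C. elegans* Genome arrays of the series, 3 germline and 3 embryo arrays, all of genotype wild-type in the N2 background. The other 6 arrays carry RNA of *lin-54(n3423)* germlines or *lin-54(n2990)* embryos, and enter below only where the same contrast was repeated on them. The study profiled the mutants to find genes regulated by LIN-54, a DNA-binding subunit of the DRM complex. In the contrast described here the 2 wild-type tissues, each a control there, are set against each other.

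Germline RNA came from gonad arms cut from adults cultured at 20 °C and taken 24 hours past L4, and covered the mitotic tip through late pachytene. It was amplified before labeling. Embryo RNA was taken without such a step, from embryos of adults grown at 25 °C, and labeled with a different kit. Neither sample is pure, since sheath and other somatic cells come along with a cut gonad arm, and germline precursors are among the cells of an embryo. Tissue, temperature, amplification, labeling kit and normalization run together in this design, so their shares in any difference cannot be told apart. In bulk RNA, fewer cells of a type and less RNA per cell cannot be told apart either.

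In a *C. elegans* gonad arm, germ cells divide under Notch signaling at the distal tip, enter meiosis, pair and recombine their chromosomes, and then mature into oocytes that are loaded with maternal mRNA. Germ cells keep RNA and protein in P granules and control many transcripts after transcription. The X chromosomes are known to be largely silenced in the hermaphrodite germline. Embryos start from this maternal RNA and then turn on lineage transcription factors that direct muscle, gut, nerve and epidermis.

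The tables hold 21541 probe sets for 17675 genes, 2491 of them on X and 15184 on autosomes. Each gene was read from 1 probe set, the one with the highest mean rank over the 6 arrays, and a call on a gene below is the call of that probe set unless another is named. Since the tissues were normalized apart, each value is the percentile rank of a probe set within its own array, from near 0 for the lowest signal to near 100 for the highest. Detection calls (present, marginal or absent) give a second readout. A gene was called detected only in 1 tissue when it was present on 3 of 3 arrays there and absent on 3 of 3 arrays of the other. It was called ranked higher when every array of 1 tissue lay above every array of the other and the means differed by at least 25 percentile points. A gene that was ranked higher and also present on 3 of 3 arrays of that tissue is termed higher and detected.

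Embryo arrays called 11737 to 11985 probe sets present and germline arrays 6347 to 8209, with germline replicate 1 the lowest. Replicate 1 also stood apart in rank, with Spearman correlations over probe sets of 0.952 and 0.953 with replicates 2 and 3, against 0.988 between those 2. Embryo arrays correlated at 0.987 to 0.995, and the tissues at 0.692 to 0.752. The median SD of a gene's percentile was 2.61 points in germlines and 1.41 in embryos (n = 3 each). Ranks were also shifted between the tables. Over all genes the median germline-minus-embryo difference was +3.91 points, and over the 6531 genes absent on all 6 arrays it was +7.94. In that absent set 417 genes were ranked higher in germlines and 35 in embryos, so rank calls toward germlines were read together with detection. The tissue labels were checked with 32 embryonic lineage transcription factors, whose values given further below are thus no separate evidence. On every embryo array 24 (75%) were present, against 47.3% of all genes. On every germline array 6 (18.8%) were present, against 25.4% of all genes. P granule genes, by contrast, were detected about as often in both tissues, 10 of 12 on every germline array and 9 on every embryo array.

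Far more genes were called present on the embryo arrays than on the germline arrays. Present on 3 of 3 arrays were 8368 genes (47.3%) in embryos and 4485 (25.4%) in germlines. Of the germline set 92.4% was also present on all 3 embryo arrays, whereas 49.5% of the embryo set was present on all 3 germline arrays. Detected only in embryos were 2201 genes, 12.5% of those on the array, and detected only in germlines were 103, or 0.583%. Of these, 1100 embryo-only and 88 germline-only genes were also ranked higher in the same tissue. By rank, 1717 genes (9.71%) were higher in embryos and 1238 (7.0%) in germlines. Ranking only probe sets present on at least 1 array turned this split, to 1477 in embryos and 1655 in germlines. With detection required as well, 1597 (9.04%) were higher in embryos and 508 (2.87%) in germlines. The 3 percentages for each tissue are the backgrounds for the counts of genes below. No test was made of these counts, because the tables were normalized separately.

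The germline-only count depended on single arrays: without germline replicate 1 it was 193. It was also taken on 1 probe set per gene. Of the 15 germline-only genes with several probe sets, 5 showed the pattern on each of them, as did 200 of 455 embryo-only genes.

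Germline-only genes with the largest rank differences were led by yolk protein genes, F-box genes and genes of the gonadal sheath. *vit-1* stood at percentiles 91.0, 85.9 and 94.8 in germlines and at 5.79, 7.84 and 7.22 in embryos, a difference of 83.6 points. Vitellogenins are yolk proteins that the adult intestine makes and oocytes take up. *vit-2* ranked at 38.7, 72.9 and 84.2 in germlines and at 1.04, 0.870 and 0.982 in embryos. Germline replicate 1 was the lowest of the 3 for *vit-2*, yet the tissues did not overlap for either gene.

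*fbxa-197*, which encodes an F-box protein of the A class, ranked at 88.4, 82.6 and 82.9 in germlines and at 10.8, 13.2 and 15.3 in embryos. *fbxa-211* differed by 53.9 points in the same direction. F-box proteins bring substrates to SCF ubiquitin ligases. *ilys-5*, an invertebrate-type lysozyme gene, was at 95.3, 87.7 and 96.2 against 29.7, 26.8 and 29.4, and each of its 3 probe sets showed the same pattern.

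*inx-8* encodes a gap junction innexin of the gonadal sheath. It was at 92.6, 87.5 and 90.7 in germlines and at 28.8, 28.4 and 27.4 in embryos. Its sister gene *inx-9* was at 64.9, 67.0 and 66.7 against 23.1, 22.2 and 22.6, but was present on only 1 germline array. *tbh-1*, for the tyramine beta-hydroxylase that makes octopamine in RIC neurons and gonadal sheath cells, was at 86.5, 94.0 and 95.2 against 42, 41 and 41.

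The remaining genes in this set were the folate transporter gene *folt-3* (57.6 points), the chemoreceptor gene *sri-40* (53.4), the zinc finger gene *egrh-2* (52.2) and the collagen genes *col-101* (52.4) and *col-106* (51.9), with *fbf-1*, *vit-4* and *vit-6* described below.

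**Figure D1:**
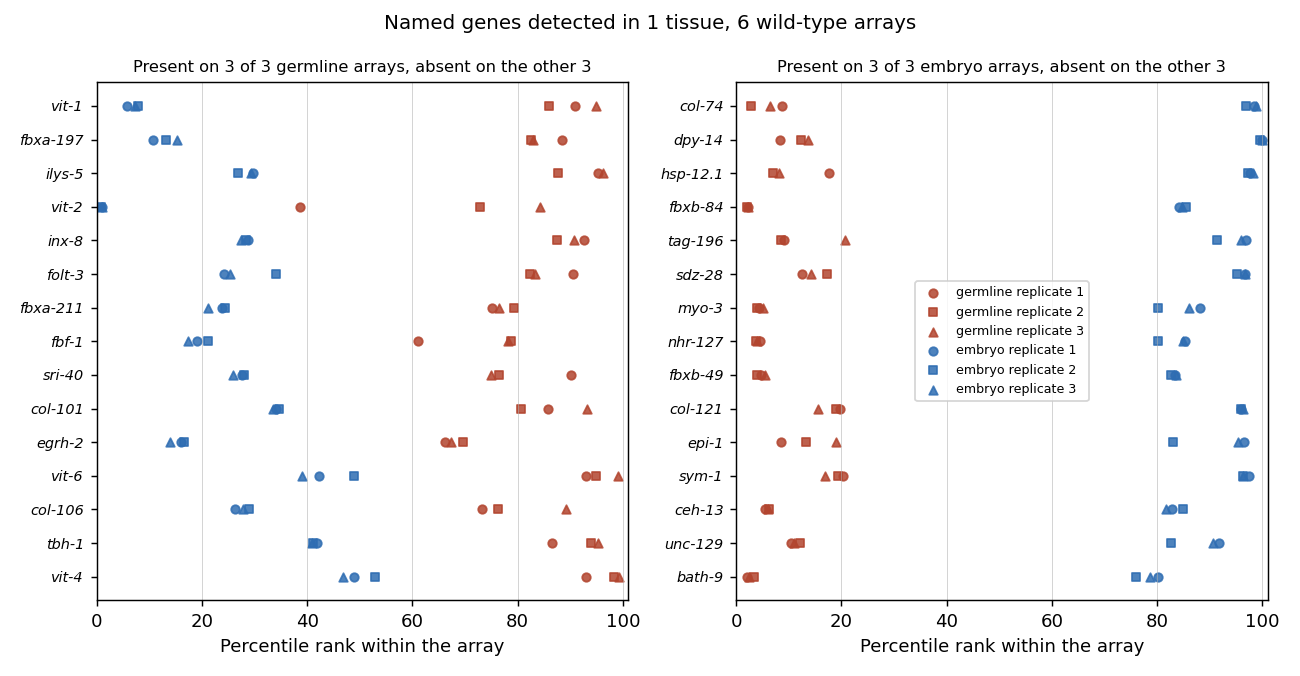
Percentile rank within the array (x axis, 0 to 100) of the 15 named genes with the largest difference among those detected only in germlines (left) and only in embryos (right), with 1 point per array, germline in red and embryo in blue, and the marker giving the replicate. No gene's groups overlap, and for *vit-2* germline replicate 1 lies at 38.7, well below the other germline arrays.

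Over all embryo-only genes the median difference was −25 points, smaller in size than the 42.8 of germline-only genes, although the leading embryo-only genes differed by more. *col-74*, a cuticle collagen gene, ranked at 98.4, 96.9 and 98.8 in embryos and at 8.65, 2.83 and 6.35 in germlines, a difference of 92.1 points. *dpy-14*, also a collagen gene, was at 99.8, 99.6 and 99.8 against 8.33, 12.2 and 13.6. Both were near the top of every embryo array and at percentiles under 15 on every germline array.

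*myo-3*, the body-wall myosin heavy chain gene, stood at 88.1, 80.1 and 86.0 in embryos and at 4.37, 3.99 and 5.06 in germlines. *epi-1*, a laminin alpha chain gene of basement membranes, was at 96.4, 82.9 and 95.4 against 8.54, 13.3 and 19.1. *unc-129*, which encodes a TGF-beta family ligand for axon guidance, was at 91.8, 82.6 and 90.7 against 10.4, 12.1 and 10.9. Embryo replicate 2 was the lowest embryo array for all of these, still far above the germline arrays.

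*ceh-13*, the labial-class Hox gene, was at 82.8, 84.9 and 81.7 in embryos against 5.43, 6.19 and 6.11. *nhr-127*, a nuclear hormone receptor gene, was at 85.2, 80.1 and 84.9 against 4.45, 3.81 and 3.93. *hsp-12.1*, a small heat shock protein gene, was at 97.6, 97.3 and 98.3 against 17.7, 7.05 and 8.03. Differences of 75.7 to 82.6 points were seen for *fbxb-84*, *fbxb-49*, *tag-196*, *sdz-28*, *col-121*, *sym-1* and *bath-9*.

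Of the 4144 genes present on all 6 arrays, 287 were ranked higher in germlines and 136 in embryos, with a median difference of +4.55 points. *fbf-2*, a PUF-family RNA-binding protein gene that keeps germline stem cells mitotic, ranked at 90, 85 and 83 in germlines and at 25, 25 and 20 in embryos. A second *fbf-2* probe set, like that of *btb-20*, was present on 3 germline and 0 embryo arrays. *egg-1*, for an oocyte surface receptor needed at fertilization, was at 83.1, 96.9 and 97.4 against 37.3, 41.7 and 31.3. Others higher in germlines were *bath-7* (59.1 points), *pgl-2* (54.3), *bath-24* (51.3), the chaperone gene *dnj-26* (49.4), the kinesin gene *klp-10* (48.9), the helicase gene *mut-14* (48.6), *btb-20* (47.3) and the chondroitin proteoglycan gene *cpg-4* (45.9).

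In the opposite direction *sdz-33*, named as a SKN-1-dependent zygotic transcript, ranked at 80.0, 85.5 and 82.1 in embryos and at 8.07, 6.54 and 7.34 in germlines. *skr-13*, a Skp1-related gene, was at 99.2, 99.2 and 99.2 against 57.0, 34.6 and 32.0, and *skr-7* differed by 58.8 points. The groups did not overlap for any of the 3. A second *skr-13* probe set was present on 0 germline and 3 embryo arrays. *oac-51*, *spp-15*, *sto-1*, *valv-1*, *nlp-31*, *rap-2* and *cut-5* differed by 54.4 to 67.6 points. The larger value belonged to *oac-51* and the smaller to *cut-5*.

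Gene lists that mark germ cells ranked higher in germlines, although many of their members were also detected in embryos. Of 12 P granule genes, 5 were higher and detected in germlines and 0 in embryos, with a median difference of +23.4 points against +3.91 over all genes. *glh-1*, a Vasa-type helicase of P granules, was at 95.1, 97.6 and 97.7 in germlines and at 60.4, 61.6 and 53.8 in embryos. *pgl-2*, for a P granule component, was at 56.6, 79.7 and 79.3 against 18.1, 16.8 and 17.7, and *pgl-3* differed by 42.1 points. The list was not uniform: *meg-2* was at 15.7, 17.6 and 23.7 in germlines, below 31.6, 36.1 and 29.7 in embryos.

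Genes of the synaptonemal complex and meiotic axis, which hold paired chromosomes together, had a median difference of +24.8 points, with 5 of 12 higher and detected in germlines and 0 in embryos. *syp-4*, a central region protein gene, was at 62, 83 and 78 in germlines and at 31, 26 and 29 in embryos. *syp-2* was at 95.7, 94.5 and 93.4 against 58.1, 69.9 and 63.0. *him-3*, *zhp-3* and *lab-1* made up the 5. Of these 12 genes 10 were present on every embryo array.

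For chromosome pairing and recombination 3 of 15 genes were higher and detected in germlines and 0 in embryos, with a median of +25. They were *spo-11*, for the enzyme that makes meiotic double-strand breaks (33.2 points), *him-5* (41.7) and the pairing center zinc finger gene *zim-3* (45.7). Without germline replicate 1 the count was 8. *zim-3* was at 39.8 in replicate 1 and at 86.5 and 86.7 in replicates 2 and 3, against 25, 28 and 23 in embryos. *him-14*, for a MutS homolog of crossovers, was at 46.2, 73.7 and 70.1 against 2.91, 1.83 and 3.19, but was present on 2 of 3 germline arrays, and its second probe set was present on 2 embryo arrays. Over all 18 lists, 42 entries were present on 2 of 3 germline arrays, and 40 of them missed replicate 1.

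Among post-transcriptional regulators of the germline 6 of 15 were higher and detected in germlines and 0 in embryos, with a median of +20.3. Besides *fbf-2* they were *fbf-1*, at 61.2, 78.7 and 78.2 against 19.1, 21.1 and 17.4, *gld-3* (42.3 points), *puf-8* (38.9), *fog-1* (33.2) and *fog-2* (29.2). *fbf-1* was the one member detected only in germlines. The sequences of *fbf-1* and *fbf-2* are close enough that their probe sets may not separate them fully. *nos-3*, a Nanos-related gene, was at 77.1, 69.5 and 66.6 in germlines and at 83.7, 82.6 and 82.4 in embryos.

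In the small RNA list 2 of 11 genes were higher and detected in germlines, namely *ego-1*, for an RNA-dependent RNA polymerase (42.6 points), and *csr-1*, for an Argonaute (37.2). The median of this list was +14.9. *ergo-1* went the other way without overlap (−11.8 points). The piwi gene *prg-1* was high in both tissues, at 87.5, 95.7 and 96.1 and at 78.4, 86.2 and 80.5.

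Oocyte and maternal genes were shared between the tissues, with 17 of 19 present on every germline array and 18 on every embryo array. Their median difference was +10.6 points, and 4 were higher and detected in germlines against 0 in embryos. *rme-2*, the yolk receptor gene of oocytes, was at 89.5, 97.4 and 97.9 in germlines and at 53.8, 60.9 and 53.6 in embryos. *egg-1*, *egg-2* (34.1 points) and *puf-11* (30.2) were the others, and without germline replicate 1 the count was 6. *pos-1*, which encodes a maternal RNA-binding protein for cell fate in early embryos, stayed near the top at 99.3, 99.4 and 99.3 in germlines and at 96.2, 97.3 and 96.9 in embryos. *skn-1* was lower in germlines without overlap (−17.4 points). Germline replicate 1 was the lowest germline array for the list as a whole, with a median percentile of 89.5 against 97.3 and 97.4.

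Sperm genes were seldom detected on every array of a tissue. None of 28 was present on every germline array, 5 were present on every embryo array, and 0 were higher and detected in either, although the list's median difference was +15.8 points. The 5 were major sperm protein genes: *msp-10*, *msp-19*, *msp-31*, *msp-59* and *msp-78*. These copies are nearly identical in sequence, so single members are uncertain. Germline replicate 3 had the highest median percentile of the sperm list, 66.9 against 57.6 and 54.2 in replicates 1 and 2. There *msp-59* stood at 82.8, against 75.3 and 70.9 in replicates 1 and 2, and it was present on 1 germline array. *spe-9*, for a sperm surface protein, was absent on all 6 arrays, at 62.2, 59.8 and 58.7 in germlines and at 47.1, 46.6 and 44.5 in embryos.

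RNA typical of the adult intestine was seen on the germline arrays. Of 16 listed genes 6 were detected only in germlines and 9 were higher and detected there against 0 in embryos, with a median difference of +30.6 points. The 9 were all 6 *vit* genes, the cathepsin B genes *cpr-1* (30.4) and *cpr-5* (30.9) and the metallothionein gene *mtl-2* (34.2). *vit-6* was at 93.0, 94.9 and 99.0 in germlines against 42, 49 and 39, and *vit-5* at 94.6, 98.4 and 99.4 against 49.1, 55.7 and 47.5. *vit-3*, *vit-4* and *vit-5* are near-identical copies, and their probe sets may not tell them apart.

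The GATA factor gene *elt-2*, from the lineage transcription factor list and not among these 16, was at 70, 67 and 64 against 70, 70 and 67 in embryos. Its probe set was absent on 3 of 3 germline arrays, while its second probe set was present on all 6. The other 7 of the 16 listed intestinal genes were not higher in germlines. The gut esterase gene *ges-1*, the intermediate filament gene *ifb-2* and the peptide transporter gene *opt-2* were absent on all 3 germline arrays, and *ifb-2* was detected only in embryos. The intestinal actin gene *act-5*, at 82.8, 75 and 79.2 against 92.4, 89 and 91.8, and the aspartic protease gene *asp-2* were present on all 6 arrays. *asp-1* was present on 2 germline arrays and the acid phosphatase gene *pho-1* on 1. The list's median percentile was 84, 77 and 89 on the germline arrays and 52.2 to 55.5 on the embryo arrays. The part of intestinal RNA in the germline values was not tested.

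Somatic gonad markers moved both ways. Of 10 genes, *inx-8* was higher and detected in germlines, while *lim-7*, *tnc-2* and *mup-2* were higher and detected in embryos. *lim-7*, a LIM homeobox gene used as a sheath marker, was absent on 3 of 3 germline arrays, at 46.7, 44.9 and 42.1 against 77, 76 and 75. *lag-2*, the Notch ligand gene of the distal tip cell, was absent on all 6 arrays. The list's median percentile was 49.9 to 54.1 on germline arrays and 45.3 to 49.9 on embryo arrays, with 1 of 10 members present on every germline array. The part of somatic gonad cells in the germline values was not tested.

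**Figure D2:**
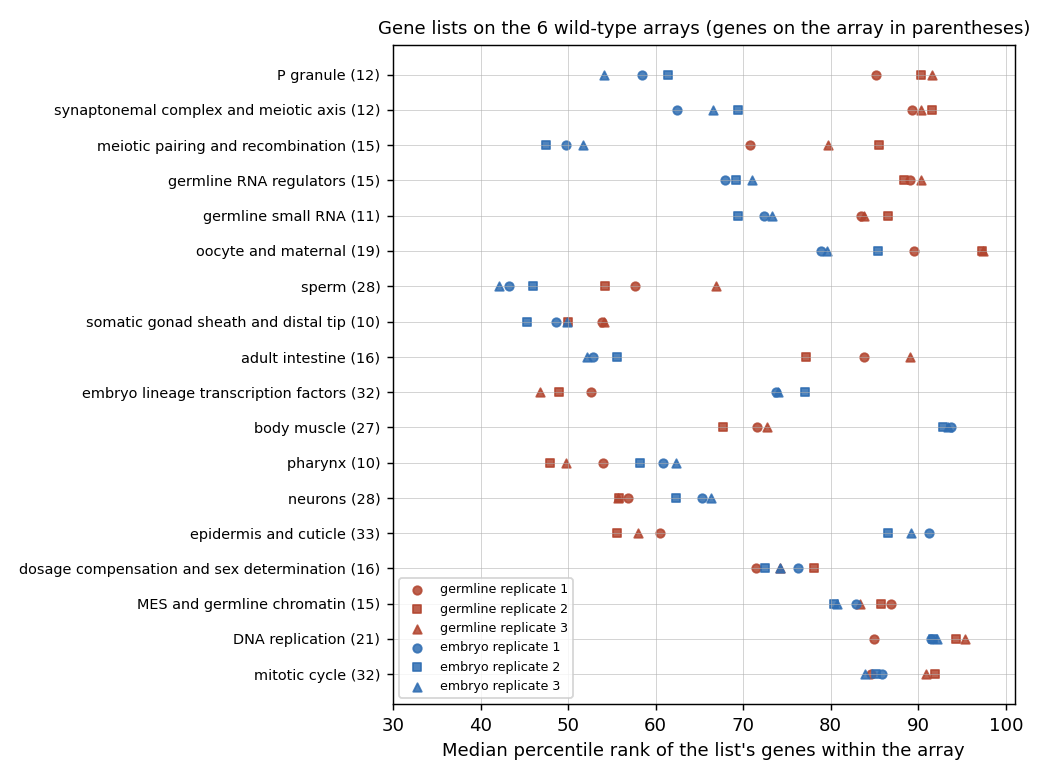
Median percentile rank (x axis) of the genes of each of 18 lists on each wild-type array, germline in red and embryo in blue, with the number of genes on the array in parentheses. The germ cell lists lie to the right in germlines, the differentiated embryo tissues lie to the right in embryos, and the DNA replication and mitotic lists overlap between tissues.

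Lineage transcription factors had the largest share of embryo-only genes among the 18 lists. Of 32 genes 16 were detected only in embryos and 11 were higher and detected there, with 0 in germlines for both, and the median difference was −18 points. Some of the 16 hardly differed in rank, such as *end-1* (−2.55) and *tbx-8* (−4.19). *end-3*, absent on all 6 arrays, ranked 16.9 points higher in germlines. The Hox genes *lin-39*, at 71.9, 71.7 and 66.4 against 27.3, 22.7 and 17.9, and *mab-5*, at 72.5, 75.3 and 74.4 against 23.2, 22.2 and 21.9, accompanied *ceh-13*. *egl-5*, a posterior Hox gene, was absent on all 6 arrays.

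Muscle regulators were in the same group. *hlh-1*, the MyoD homolog, was at 56.8, 63.2 and 55.1 in embryos and at 7.64, 6.98 and 7.84 in germlines. *unc-120*, an SRF-type factor gene, differed by 45.3 points and *elt-1*, an epidermal GATA factor gene, by 44.4. In contrast *pal-1*, a Caudal homolog that is supplied maternally, was at 95, 97 and 96 in germlines and at 90.8, 92.6 and 92.9 in embryos. *tbx-9* was present on all 6 arrays as well.

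Body muscle genes were present on every embryo array for 25 of 27 members and on every germline array for 11. Detected only in embryos were 7 of them, and 9 were higher and detected there, with a median of −19.7 points. The troponin genes *tnt-3* (−64.8) and *tni-1* (−40.1), the attachment gene *unc-112* (−42.4) and *pat-2*, an integrin alpha chain gene (−35.9), were among the 9. *unc-54* was not matched on the array, so *myo-3* stands alone here for body-wall myosin. Actin genes differed little, with *act-4* at 98.4, 97.6 and 98.9 in germlines and at 99.7, 99.4 and 99.7 in embryos.

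Epidermal and cuticle genes had a median of −21 points, with 8 of 33 detected only in embryos and 12 higher and detected there. *dpy-2*, *dpy-3*, *dpy-7* and *dpy-10*, cuticle collagen genes, differed by 39.5 to 65.8 points. *noah-2*, for an apical matrix protein of the embryonic sheath, was at 99.1, 98.8 and 99.0 in embryos and at 60, 59 and 58 in germlines. *dpy-17* was at 100.0, 99.9 and 100.0 in embryos and at 52, 55 and 58 in germlines. Collagen genes of later stages, such as *rol-6*, *sqt-1* and *bli-2*, were absent on all 6 arrays.

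Neuronal genes were less uniform. Of 28 members 9 were detected only in embryos and 5 were higher and detected there, with a median of −5.26 points. *unc-64*, the syntaxin gene of synaptic vesicle release, was at 64.9, 57.1 and 64.7 in embryos and at 2.01, 4.29 and 7.11 in germlines. *ric-3*, a chaperone of acetylcholine receptors, differed by −42.3 and *ric-19* by −30.7. The neuronal gene *rgef-1* was absent on all 6 arrays, as was the glutamate transporter gene *eat-4* but for 1 present call on an embryo array with its second probe set. Of 10 pharyngeal genes 4 were detected only in embryos, among them the troponin genes *tnt-4* and *tni-4*.

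Cell division genes ranked much alike in the tissues. The DNA replication list had a median of −0.146 points, with 17 of 21 present on every germline array and 21 on every embryo array. *mcm-7*, a subunit of the replicative helicase, was at 95.5, 99.0 and 98.9 in germlines and at 98.8, 98.7 and 98.8 in embryos. The exception by rank was *cdt-1*, a replication licensing gene, at 25, 35 and 32 against 74.4, 71.6 and 71.1. *psf-1*, for a GINS subunit, was also higher and detected in embryos (−28.8), but not without germline replicate 1, which left 1 such gene.

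Of 32 mitotic cycle genes 2 (6.25%) were higher and detected in embryos, below the 9.04% of all genes, and 0 in germlines. The list's median difference was +3.02 points. The 2 were *cyd-1* and *cki-1*. *cyd-1*, the cyclin D gene, was at 77.3, 85.4 and 81.4 in embryos and at 49.2, 45.4 and 44.5 in germlines. *cki-1*, a CIP/KIP inhibitor gene, was at 92.5, 97.2 and 95.1 against 71.2, 58.5 and 57.4. Neither probe set of *cyd-1* was present on any germline array. For *cki-1* the probe set shown was absent on 3 of 3 germline arrays and a second one was present on all 6, with a similar difference of −36.6. Cyclin B genes were near the top in both tissues, with *cyb-3* at 97.9, 99.2 and 99.1 in germlines and at 99.0, 98.8 and 98.9 in embryos. *cdc-25.2* was absent in germlines and *cdc-25.1* present on all 6 arrays, at 94.5, 96.1 and 97.1 against 72.9, 78.2 and 73.7.

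Members of the dosage compensation and sex determination list differed widely. DPY-27 is the condensin subunit dedicated to the X chromosomes of somatic cells, and *dpy-27* was at 88.9, 82.5 and 85.4 in embryos against 27.2, 27.6 and 26.9 in germlines. *sdc-2*, which brings the complex to X, was at 76.8, 52.4 and 73.6 against 34.4, 29.7 and 27.4, and *sdc-3* differed by −31.6. Of those whose products also act in other complexes, *mix-1* differed by −9.48, *dpy-28* by +0.897 and *dpy-30* by −0.0913. Second probe sets went against this contrast, with −2.21 for *dpy-27* and −42.9 for *dpy-28*. Besides *dpy-27*, *dpy-21* (−5.11) and *xol-1* (−7.99) were detected only in embryos. *fem-3*, a sex determination gene for male fate, was the one member higher and detected in germlines (25.5). The list of 16 as a whole had a median of −0.886.

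Chromatin factors of the germline were found in both tissues. Of 15 genes in a list of MES proteins and related factors 10 were present on every germline array and 15 on every embryo array, with a median of +4.4. *mes-4*, for a methyltransferase of H3K36, was at 93.5, 94.7 and 94.1 in germlines and at 86.5, 82.8 and 82.5 in embryos. A second *mes-4* probe set differed by +0.809. *met-1*, another H3K36 methyltransferase gene, was the exception, absent on 3 of 3 germline arrays and at 22.5, 19.7 and 16.8 against 70.0, 62.1 and 70.3.

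The 8 DRM subunit genes were detected in both tissues and none met the rank rule. *lin-54* was at 91.2, 96.5 and 96.4 in germlines and at 85.9, 84.0 and 85.9 in embryos. *efl-1*, the E2F gene, differed by +15.3, and by +2.44 on a second probe set. *dpl-1*, its DP partner, was at 32.8 in germline replicate 1 and at 79.3 and 78.2 in replicates 2 and 3, and the pocket protein gene *lin-35* was at 60.6, 84.7 and 82.1, with a second probe set that differed by +5.10. Embryo values were 72.2, 72.7 and 67.9 for *dpl-1* and 91.5, 82.1 and 90.2 for *lin-35*.

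By symbol family, the largest embryo-only group was *fbxb*, the F-box B genes. Of 99 on the array 58 (58.6%) were detected only in embryos, against 12.5% of all genes, and 4 were present on every germline array. 51 were higher and detected in embryos and 0 in germlines. Chromosome II holds 56 of the 99, 32 of them embryo-only, with embryo-only members on every other chromosome too. *fbxb-84* on III was at 84.1, 85.5 and 84.8 in embryos and at 2.29, 2.07 and 2.31 in germlines, and *fbxb-49* on II at 83.3, 82.6 and 83.5 against 4.78, 4.02 and 5.51.

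The related *fbxc* genes had 17 of 42 (40.5%) embryo-only, yet 4 members were higher and detected in germlines: *fbxc-42*, *fbxc-43*, *fbxc-45* and *fbxc-50*. The *fbxa* genes had 5 of 160 (3.13%) embryo-only and 9 (5.63%) higher and detected in germlines. The F-box classes thus stood on different sides of the 12.5% and 2.87% backgrounds. Copies in these families are similar in sequence and may share probes.

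BTB/MATH genes of the *bath* family, whose products are adaptors of CUL-3 ubiquitin ligases, were higher and detected in germlines in 7 of 35 (20.0%), against 2.87% of all genes. In embryos 4 (11.4%) were, near the 9.04% of all genes. *bath-7* was at 74.9, 74.4 and 73.0 in germlines and at 16.8, 15.7 and 12.5 in embryos. *bath-9* showed the reverse at 2.1, 3.4 and 2.3 against 80.2, 76.1 and 78.6. Both lie on chromosome II, as do 6 of the 7 and 3 of the 4. The count for germlines was 11 without embryo replicate 2.

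Several families of developmental genes exceeded the 12.5% background for embryo-only detection. All but 1 of the 10 *wrt* genes, which encode hedgehog-related warthog proteins, were embryo-only, yet only *wrt-10* and *wrt-1* were higher and detected by rank. On the mutant arrays 2 *wrt* and 5 *hlh* genes were embryo-only. *wrt-10* was at 98.0, 97.6 and 97.2 in embryos and at 45.3, 45.8 and 42.4 in germlines. Patched-related *ptr* genes were embryo-only in 9 of 23 (39.1%), with *ptr-4* (−66.4) and *ptr-10* (−64) differing the most.

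Homeobox *ceh* genes were embryo-only in 17 of 39 (43.6%), *hlh* genes in 9 of 21 (42.9%) and nuclear hormone receptor *nhr* genes in 55 of 259 (21.2%). Tetraspanin *tsp* genes were embryo-only in 9 of 18 (50%), 5 of them on X, and peroxisome *prx* genes in 5 of 10 (50%). Cuticlin-like *cutl* genes had 9 of 28 (32.1%), with 0 present on every germline array. *sdz* genes, named for dependence on the maternal factor SKN-1 and zygotic expression, had 11 of 32 (34.4%).

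Heat shock genes of the *hsp* symbol were higher and detected in embryos in 8 of 17 (47.1%) and in germlines in 0. These 8 were *hsp-12.1*, *hsp-12.2*, *hsp-12.3*, *hsp-16.1*, *hsp-16.2*, *hsp-16.41*, *hsp-16.48* and *hsp-3*. *hsp-16.41* was at 98.1, 94.6 and 91.1 in embryos and at 7.62, 46.7 and 70.5 in germlines, which spread widely yet stayed below the embryos. The embryos came from the warmer culture, so temperature and tissue cannot be told apart for them.

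Other families had no gene called in either direction, among them the ribosomal *rps*, *rpn* and *npp* genes. All 31 *rps* genes and 11 *rpn* genes of the proteasome were present on 6 of 6 arrays, as were 18 of 22 nucleoporin *npp* genes, and none of these genes was detected only in 1 tissue or ranked higher in either. Chemoreceptor families (19 families, 1172 genes) were seldom detected. Present on every germline array were 37 genes (3.16%) and on every embryo array 65 (5.55%), against 25.4% and 47.3% of all genes. By rank 98 of the 1172 (8.36%) were higher in germlines, near the 7.0% of all genes. Of these 98, 2 were present there on all 3 arrays.

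**Figure D3:**
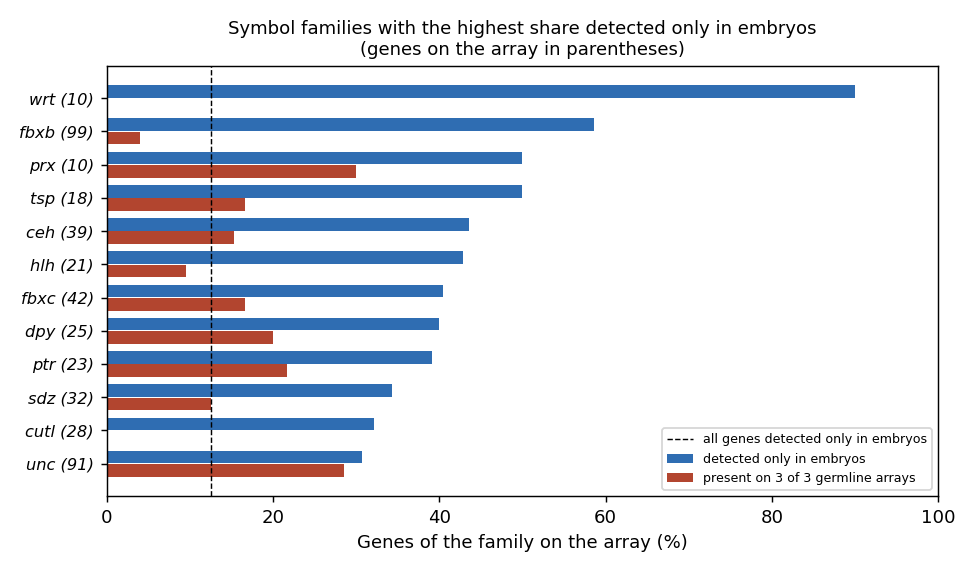
Share of genes in each symbol family (x axis, percent of the family's genes on the array) that were detected only in embryos (blue) or present on 3 of 3 germline arrays (red), for the 12 families with the highest embryo-only share. The *wrt* family reaches 90% and *fbxb* 58.6%, against the dashed background of 12.5% for all genes.

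The X chromosome set the tissues apart. On embryo arrays 53.5%, 52.2% and 53.4% of X-linked genes were present, close to 52.2%, 51.2% and 51.5% of autosomal genes. On germline arrays 18%, 20% and 24% of X-linked genes were present, against 31%, 36% and 38% of autosomal genes. X minus autosome was −14.5 ± 1.48 percentage points in germlines and +1.36 ± 0.433 in embryos (mean ± SD, n = 3 each). The difference of −15.9 points had an exact two-sided permutation p of 0.1, the smallest that 3 against 3 arrays allow.

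The median percentile behaved alike. In germlines the X median lay 5.90 points below the autosome median (−6.05, −5.77 and −5.88), and in embryos 1.66 above it (2.26, 0.689 and 2.04). The values of the tissues did not overlap, and the difference of −7.56 again had an exact two-sided permutation p of 0.1. The overall share of present calls also differed between the tissues, as given above, and its part in these gaps was not tested.

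**Figure D4:**
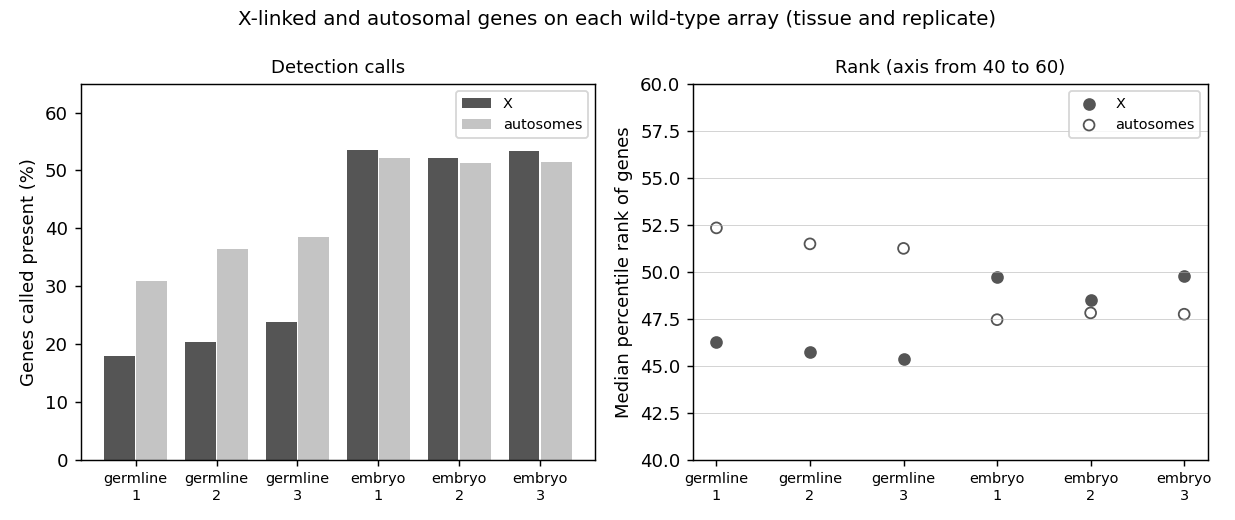
X-linked and autosomal genes on each wild-type array: percent called present (left, bars from 0) and median percentile rank (right, axis from 40 to 60). X-linked genes lie below autosomal genes on the 3 germline arrays and slightly above them on the 3 embryo arrays.

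The next values describe genes chosen for detection in embryos, which favors that tissue on every chromosome, and they are no further support. Of genes present on every embryo array, 1206 were X-linked, with a median embryo percentile of 72.7, and 7162 autosomal, with 75.3. In germlines 570 (47.3%) of these X-linked genes were absent on 3 of 3 arrays, against 1631 (22.8%) of the autosomal ones. Their median germline percentiles were 55.9 and 75.6. Among the genes present on all 6 arrays, the median difference was −6.13 points for 308 on X and +5.04 for 3836 on autosomes.

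Embryo-only genes made up 22.9% of X-linked genes and 8.89% (V) to 13.4% (II) of those on single autosomes. Present on every germline array were 13.5% of X-linked genes, 17.1% on V, 24.8% on II, 28.7% on IV, 35.6% on I and 39.1% on III. In embryos chromosome V, with 33.2%, was the lowest, and X, with 48.4%, was level with II (48.4%) and IV (48%). X thus held 25.9% of embryo-only genes, 7.51% of germline-present genes and 14.1% of all genes on the array.

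**Figure D5:**
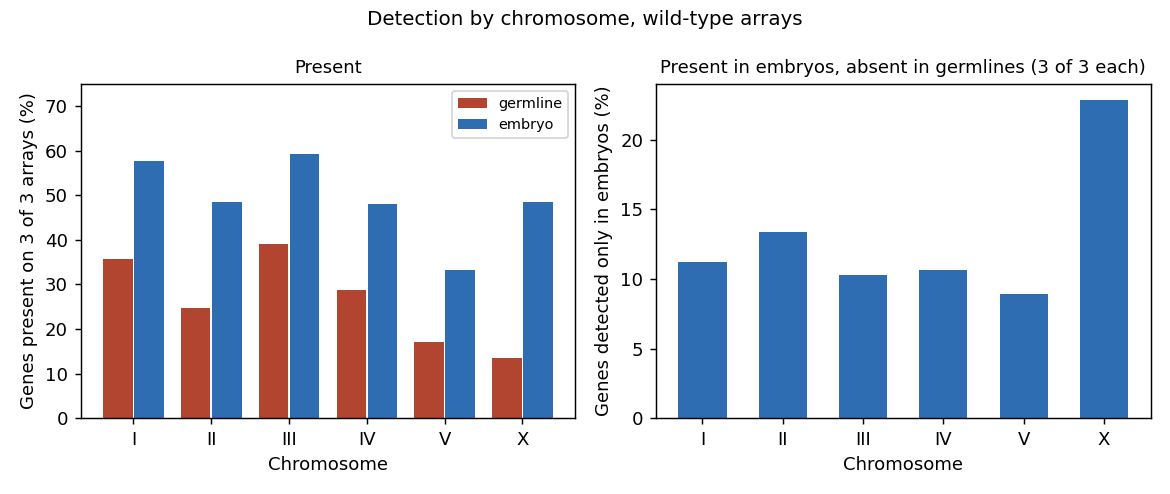
Percent of genes on each chromosome present on 3 of 3 arrays of each tissue (left, germline red, embryo blue) and percent detected only in embryos (right), with bars from 0. X is the lowest chromosome in germlines at 13.5% and the highest for embryo-only genes at 22.9%.

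Among the embryo-only genes on X were, besides *dpy-3* and *dpy-7*, *sym-1*, a leucine-rich repeat protein gene (97.5, 96.4 and 96.2 against 20.3, 19.4 and 16.9), *tnt-3*, *tni-1*, *ceh-36* (−64.2) and *ptr-4*. For *sym-1* a second probe set differed by 22 points and was present on 1 embryo array. X-linked genes detected only in germlines numbered 14, which is 0.562% of the genes on X, against 0.586% of autosomal genes. Of the 8 with a gene symbol 4 were *vit-1*, *vit-2*, *vit-4* and *vit-5*, and the others were *ilys-5*, *tbh-1*, *col-178* and *nspc-9*. The germline lists held 2 X-linked genes, both for P granule proteins: *meg-1* was present on all 6 arrays, at 93.2, 96.7 and 94.6 in germlines and at 76, 81 and 78 in embryos, whereas *meg-2*, given above, was absent on 3 of 3 germline arrays and lower there.

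Detected genes often lay next to one another. In the gene order of RefSeq assembly WBcel235, 16050 genes could be placed. Of 2060 embryo-only genes 33.4% had an adjacent embryo-only gene, against 22% of the other genes. Of 4219 germline-present genes 67.1% had a neighbor of the same kind, against 33.6% of the others. These are descriptions without a test, and they include tandem copies, which may share probes, and the X chromosome. The longest embryo-only runs had 5 genes, such as *fbxb-18*, *fbxb-19*, *fbxc-22*, *fbxc-21* and *fbxc-26* on II, and another on II held *ast-1* and *rhgf-2*. *lpr-3* and *lpr-4*, lipocalin-related genes of the apical matrix, lay in a run of 4 on X.

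The contrast could be repeated on the 6 mutant arrays, where both tissues were *lin-54* mutant. There 1764 genes were detected only in embryos and 35 only in germlines. Embryo-only on both sets of arrays were 1252 genes, 56.9% of the wild-type list and 71% of the mutant list. Germline-only on both were 18 genes, 17.5% of the wild-type list and 51.4% of the mutant list. The count of genes ranked higher in opposite tissues was 0. X minus autosome on the mutant arrays was −17.6 ± 1.79 percentage points present in germlines and −1.93 ± 2.37 in embryos (n = 3 each).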

How the data were processed

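The authors hybridized 1 Affymetrix array per biological replicate and deposited log2 values computed by RMA with the R package affy (background correction, quantile normalization, probe set summary), separately for embryos and germlines; probe sets were tied to genes by WormBase WS190. The deposited detection calls (P, M or A) came from the Affymetrix software. The submitters' processing notes also name limma; columns of the authors' own mutant against wild-type contrasts (log2 fold changes and p-values) were left aside. Per-sample columns without a sample numbered 0.

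The tables were joined on probe set (21541). Ranks were computed with pandas 2.3.3 in Python 3.11.15, as 100 times (rank minus 0.5) over the number of probe sets. Exact permutation tests used scipy 1.17.1, and the calls were tested on simulated data. The simulation gave both groups the embryo spread, with neither the rank shift between tables nor a replicate that stands apart. It therefore cannot give the rate of false calls here. For 8 probe sets the germline table holds gene symbols turned into dates, and the embryo table's symbols were used. Symbol families have at least 10 genes. Of 371 list entries 352 were on the array, 9 through an older or newer symbol. Gene order came from RefSeq (16057 genes matched by symbol). Genes named are, per direction, the 15 detected only in 1 tissue and the 10 present on all arrays with the largest difference, X-linked germline-only genes, DRM subunits, and members of lists and families; genes in runs of neighbors were chosen after their values were seen. The comparison, members and lists were chosen with earlier results of these data known. Array number limits the precision, and no test was made across the separately normalized tables beyond contrasts within an array. Alternatives were other call rules, probe set choices, leaving out each replicate, and the mutant arrays.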

Additional observations from a re-analysis of the deposited data

How the results depend on the processing

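Detected-only and ranked-higher counts changed most with the call rule. The germline-only share of 0.583% of genes (103) was 2.14% (379) when 2 of 3 calls sufficed and 0.198% (35) on the mutant arrays, and lay between 0.634% and 1.09% when single replicates were left out, the latter (193 genes) without germline replicate 1. A minimum of 15 points gave 22.1% (3915) ranked higher in germlines and 16% (2828) in embryos, and 40 points gave 1.18% (209) and 4.23% (747). With detection required, a rule chosen after seeing the data, 2.87% (508) in place of 7.0% (1238) were higher in germlines. Rules that ask for more or less give fewer or more genes by construction, and for the mutant arrays and replicate 1 the cause was not tested. Other alternatives left these 4 counts within 1.5 times the values reported, although ranking among detected probe sets put germlines ahead (1655 against 1477).

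Both X contrasts kept their direction under every alternative, from −16.8 to −14.3 percentage points present and from −15.7 (genes present on at least 1 array) to −6.08 (mutant arrays) points of rank. Same-numbered samples did not deviate together (correlations −0.186, −0.186 and −0.0414). Samples with different numbers were not compared in this way, so whether the numbers pair the samples is not settled. With a replicate block the values of −15.9 and −7.56 are the same by construction. The exact two-sided permutation p was then 0.25, the smallest that 3 pairs allow. With a replicate left out the smallest possible exact p is 0.2. For the 53 genes named by the rule for the largest differences, and for no others, 8 alternatives each were run. All 424 values kept their direction, and 48 moved by more than the larger SD of the tissues. These genes were chosen for large differences without overlap between the tissues, so leaving out an array could not reverse them. The count of kept directions is therefore no support for them. Among families, *wrt* and *hlh* fell to 2 and 5 embryo-only genes on the mutant arrays, and *bath* rose from 7 to 11 higher and detected in germlines without embryo replicate 2. Signal over background limits absent calls, and germline replicate 1 had the fewest present calls.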
